A study of Homo sapiens with 6 samples.

Results

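ZBTB genes encode zinc finger transcription factors that carry a BTB domain, and they were examined in NCI-H1703 cells with reduced PPM1G. The group was chosen by gene symbol alone, as every row of the count table whose symbol starts with ZBTB and a digit. It holds 42 of 17534 rows. One of them, ZBTB8OS, takes its name from lying opposite ZBTB8A and encodes archease, a cofactor of the tRNA ligase, which is not a ZBTB protein. It was kept as the rule requires, and counts are also given over the other 41 rows.

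RNA sequencing was deposited for 6 libraries of NCI-H1703, a human lung cancer line that the labels call squamous cell carcinoma. In the labels the genotype of the 3 control libraries is Sh-NC, with no explanation of NC, although the design text speaks of wild-type cells. The other 3 libraries come from cells with a short hairpin RNA (shRNA) against PPM1G and carry the label Sh-PPM1G. PPM1G is a nuclear serine/threonine phosphatase of the PP2C family. All 6 libraries come from 1 cell line. How many hairpins were used, whether the cells were a pool or a clone, and whether replicates were separate cultures is not stated in the labels. P-values therefore reflect the spread among these libraries alone, and that spread may be technical. In bulk RNA, a change in the share of cells that express a gene and a change in RNA per cell cannot be told apart.

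ZBTB proteins bind DNA through C2H2 zinc fingers near the carboxyl end, while the amino-terminal BTB domain pairs the proteins and docks corepressors such as NCOR1 and BCOR. Most described members repress transcription. They are best known as switches of lymphoid cell fate, as readers of methylated DNA and as regulators of the cell cycle inhibitor gene CDKN1A and of MYC function.

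The libraries held 31337553 to 35838246 counts, and 15117 to 15376 genes had at least 1 count. PPM1G itself, the targeted transcript, stood at 332.9, 307.7 and 323.8 CPM in control libraries 1 to 3 and at 181.7, 194.0 and 188.1 CPM in PPM1G shRNA libraries 1 to 3, a fall to 0.585 of the control level (edgeR's quasi-likelihood test, adjusted p = 3.3e-20). CPM here means TMM-scaled CPM, the read count of a gene relative to the scaled size of its library. Squamous markers were mostly absent. Of 7 found in the table, KRT14, KRT6A, DSG3, DSC3 and PKP1 were too low to be tested, and SOX2 and TP63 averaged 22.8 and 1.54 CPM in the control libraries. The summed FPKM of those 7 was 8.58 to 9.74 in control and 4.32 to 4.81 in PPM1G shRNA libraries. Of 5 lung adenocarcinoma markers, NKX2-1 averaged 113.5 CPM in the control and 120.8 CPM in the PPM1G shRNA libraries. NKX2-1 was not called (edgeR adjusted p = 0.064). NAPSA rose from 2.16 to 21.8 CPM and KRT7 from 1.53 to 10.7 CPM, and SFTPB and SFTPC were too low to be tested. Of 6 immune cell markers 5 were too low to be tested. CD68, a lysosomal protein gene, made up nearly all of their summed FPKM of 704 to 736 in control and 335 to 353 in PPM1G shRNA libraries, and it fell by 1.16 on the log2 scale, from 1266 to 566 CPM. Summed FPKM of the 5 adenocarcinoma markers was 45.4 to 50.7 in control and 69.2 to 74.6 in PPM1G shRNA libraries, and that of 6 fibroblast markers 26.1 to 28.9 and 62.2 to 63.4. Most of the fibroblast sum was COL1A1, which rose from 154 to 344 CPM. PDGFRB rose from 3.95 to 9.48 CPM, COL1A2 fell from 6.42 to 3.96 CPM, and DCN, LUM and PDGFRA were too low to be tested. Endothelial markers summed to under 1 FPKM in every library. The part of these shifts in the results on ZBTB genes was not tested.

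Most ZBTB genes were higher in the PPM1G shRNA libraries. Of 42 rows, 39 passed the filter on low counts and were tested together with 13021 other genes. At an adjusted p under 0.05, 28 rose (71.8%), 5 fell (12.8%) and 6 were not called. Among all 13060 genes tested, 41.5% rose and 41.3% fell. Without ZBTB8OS the count was 28 rises and 4 falls among 38. The median log2 fold change of the 39 was 0.50, with quartiles of 0.12 and 0.80, and the median of all genes tested was 0.01, with quartiles of -0.54 and 0.54.

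The changes were mostly modest in size. Only ZBTB2, ZBTB10, ZBTB43 and ZBTB21 rose by at least 2-fold, which is 10.3% of the 39 against 11.8% of all genes, a share near the background. By edgeR's test 0 members fell by at least 2-fold, against 12.4% of all genes. Without regard to p and by DESeq2 and limma-voom that number was also 0. Control and PPM1G shRNA libraries did not overlap for 34 of 39 members (87.2%), against 83.7% of all genes tested. Replicates varied little (biological coefficient of variation 0.0393), and small differences passed the test. Scaling by plain library totals in place of TMM raised the log2 fold changes of all genes by a median of 0.10, and 29 members then rose and 5 fell.

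**Figure D1:**
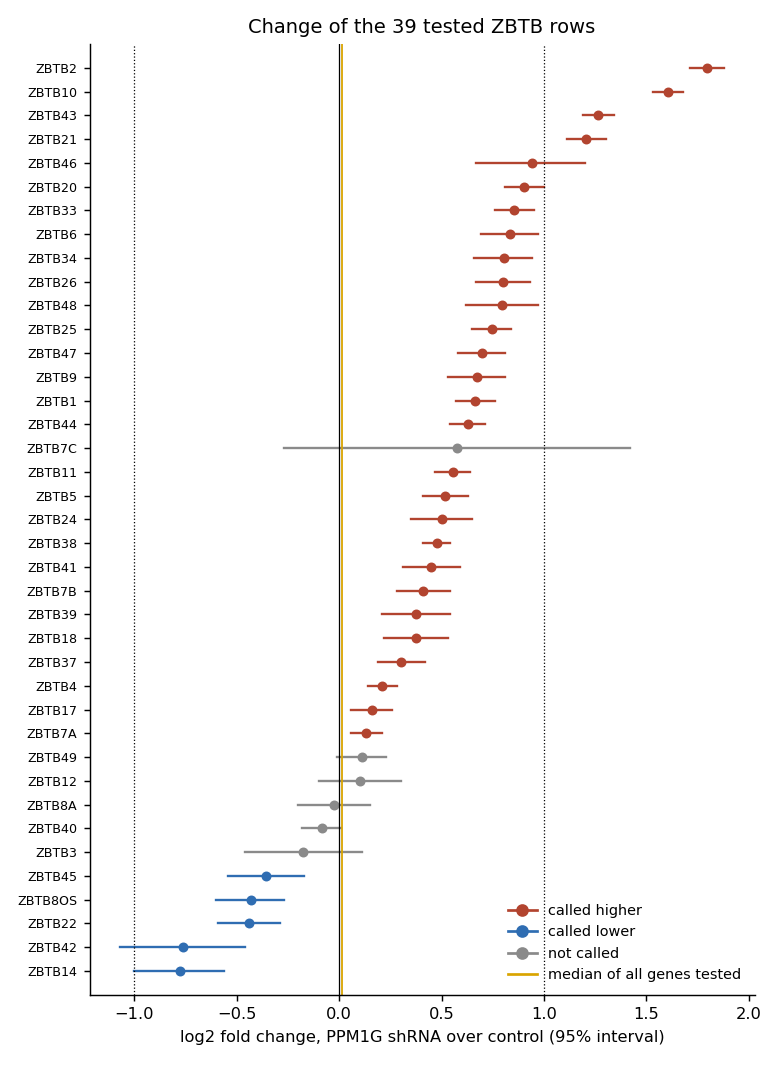
Log2 fold change (x axis, PPM1G shRNA over control) of the 39 tested rows, with 95% intervals from edgeR's quasi-likelihood fit. Dotted lines mark 2-fold, and the yellow line marks the median of all genes tested, 0.01. The 28 called rises reach from 0.13 for ZBTB7A to 1.79 for ZBTB2, and the 5 called falls from -0.36 for ZBTB45 to -0.78 for ZBTB14.

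The steepest rise was that of ZBTB2 (Entrez 57621; chromosome 6, positions 151364115 to 151391559 on GRCh38), a repressor known to act on CDKN1A. Its level was 51.5, 45.2 and 47.7 CPM in control libraries 1 to 3 and 169.5, 164 and 167 CPM in PPM1G shRNA libraries 1 to 3. All PPM1G shRNA libraries stood more than 3-fold above the highest control library. ZBTB2 rose by 1.79 on the log2 scale (SE 0.04), a 3.46-fold change (edgeR, adjusted p = 2.7e-27). It had rank 455 among 13060 genes by size of rise.

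ZBTB10 (Entrez 65986; chromosome 8, positions 80485593 to 80526265), a protein reported to bind telomeric repeats and to repress SP1, came next. The control libraries had 76.8, 75.9 and 71.8 CPM and the PPM1G shRNA libraries 229.7, 228 and 225 CPM. The groups were far apart and each was tight. Its rise was 3.04-fold (log2 1.60, SE 0.04; edgeR adjusted p = 3.0e-28). SP1 itself fell slightly, by 0.23 on the log2 scale (SE 0.04).

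ZBTB43 (Entrez 23099; chromosome 9, positions 126804072 to 126838210) and ZBTB21 (Entrez 49854; chromosome 21, positions 41986831 to 42010360) both changed by a little over 2-fold. ZBTB43 had 66.7, 66.2 and 63.0 CPM in the control and 159, 153 and 158 CPM in the PPM1G shRNA libraries. ZBTB21 had 31.1, 32.1 and 31.7 CPM in the control and 75.3, 71.5 and 72.2 CPM in the PPM1G shRNA libraries. Neither gene showed overlap between the groups. The log2 changes were 1.26 (SE 0.04; edgeR adjusted p = 1.7e-24) and 1.21 (SE 0.05; adjusted p = 1.7e-21). ZBTB21 is known as a binding partner of ZBTB14, whose transcript changed in the opposite direction.

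ZBTB46 and ZBTB20 lay just under 2-fold. ZBTB46 (Entrez 140685; chromosome 20, positions 63743670 to 63833895) marks classical dendritic cells and is known in endothelium. It was among the lowest members tested, at 3.71, 3.61 and 3.51 CPM in the control and 7.36, 6.86 and 6.57 CPM in the PPM1G shRNA libraries. Its rise was 1.92-fold (log2 0.94, SE 0.13; edgeR adjusted p = 7.8e-08). ZBTB20 (Entrez 26137; chromosome 3, positions 114314500 to 115147288), a developmental repressor in hippocampus and liver, had 85.9, 90.9 and 75.5 CPM in the control and 158, 158 and 156 CPM in the PPM1G shRNA libraries. Control library 3 was the lowest of its group, and the groups did not overlap. ZBTB20 rose 1.87-fold (log2 0.90, SE 0.05; adjusted p = 4.0e-14). In the GENCODE annotation of GRCh38, 47.7% of its exon bases are shared with a non-coding transcript on the same strand, so its count is uncertain to that extent.

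**Figure D2:**
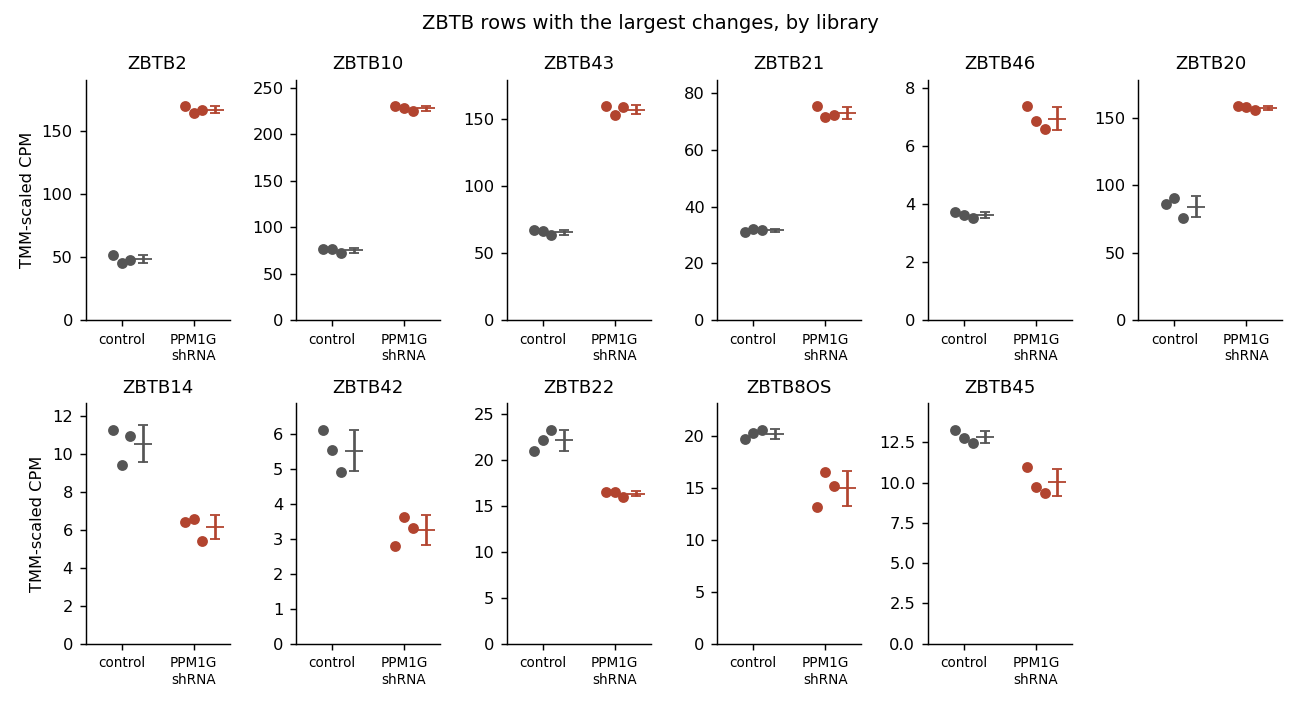
TMM-scaled CPM (y axis, from 0) of the 6 members with the largest called rises (top row) and the 5 called falls (bottom row). Each point is 1 library, ordered 1 to 3, and the bar beside the points is the mean with SD (n = 3). In all 11 panels the 2 groups of points are separate. ZBTB2 goes from 48.1 ± 3.2 to 167 ± 2.7 CPM, and ZBTB14 goes from 10.6 ± 0.97 to 6.15 ± 0.62 CPM.

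Falls were fewer and came from genes with control means between 5.51 and 22.1 CPM. ZBTB14 (Entrez 7541; chromosome 18, positions 5289022 to 5297053), first described as a repressor at the MYC promoter, had 11.3, 9.44 and 10.9 CPM in the control and 6.43, 6.59 and 5.44 CPM in the PPM1G shRNA libraries. The lowest control library was above the highest PPM1G shRNA library. ZBTB14 fell by 0.78 on the log2 scale (SE 0.11; edgeR adjusted p = 1.1e-07), to 0.583 of its control level. MYC rose by 0.33 (SE 0.03), from 148 to 187 CPM.

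ZBTB42 (Entrez 100128927; chromosome 14, positions 104800554 to 104804712), a skeletal muscle factor, had 6.10, 5.54 and 4.91 CPM in the control and 2.78, 3.62 and 3.31 CPM in the PPM1G shRNA libraries. The groups did not overlap. It fell to 0.589 of the control level (log2 -0.76, SE 0.15; edgeR adjusted p = 2.7e-05). Between 90 and 209 counts per library lie behind these values.

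ZBTB22 (Entrez 9278; chromosome 6, positions 33314418 to 33317942), a member encoded in the extended major histocompatibility region, had 20.9, 22.2 and 23.2 CPM in the control and 16.5, 16.6 and 16.0 CPM in the PPM1G shRNA libraries. ZBTB45 (Entrez 84878; chromosome 19, positions 58513530 to 58538911), known in glial differentiation, had 13.2, 12.7 and 12.5 CPM (control) and 11.0, 9.70 and 9.37 CPM (PPM1G shRNA). In both genes every control library was above every PPM1G shRNA library. The log2 changes were -0.44 (SE 0.07; edgeR adjusted p = 2.0e-06) and -0.36 (SE 0.09; adjusted p = 0.00058).

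ZBTB8OS (Entrez 339487; chromosome 1, positions 32620820 to 32650932), the archease gene, had 19.7, 20.3 and 20.5 CPM in the control and 13.2, 16.4 and 15.1 CPM in the PPM1G shRNA libraries. PPM1G shRNA library 1 was the lowest, and the groups were separate. It fell by 0.43 on the log2 scale (SE 0.08; edgeR adjusted p = 1.2e-05). Its neighbour ZBTB8A, a ZBTB gene on the opposite strand with a shared stretch of 179 exon bases, was not called, at 13.1, 11.9 and 12.4 CPM in the control and 11.9, 11.9 and 12.9 CPM in the PPM1G shRNA libraries. Its count is uncertain, since 25.2% of its exon bases belong to another gene on the same strand.

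To show what lies at the start sites of these genes, RefSeq promoter windows (GRCh38.p14; 250 bases before and 50 after the start) are given for 3 of the steep risers and for both steepest fallers. Where a gene has several windows, as ZBTB14 with 3, the outermost is shown. Each reads 5′ to 3′ on the strand of the gene, and capitals mark every match to the motifs searched. The windows are chr6:151391510-151391809 (minus strand), chr21:42010311-42010610 (minus), chr9:126804790-126805089 (plus), chr18:5297004-5297303 (minus) and chr14:104800851-104801150 (plus).
ZBTB2: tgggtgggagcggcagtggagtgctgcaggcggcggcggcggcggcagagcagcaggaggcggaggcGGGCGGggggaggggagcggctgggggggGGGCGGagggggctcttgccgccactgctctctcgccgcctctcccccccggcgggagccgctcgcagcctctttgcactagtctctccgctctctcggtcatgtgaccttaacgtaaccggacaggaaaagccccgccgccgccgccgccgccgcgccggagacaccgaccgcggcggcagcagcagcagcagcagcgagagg
ZBTB21: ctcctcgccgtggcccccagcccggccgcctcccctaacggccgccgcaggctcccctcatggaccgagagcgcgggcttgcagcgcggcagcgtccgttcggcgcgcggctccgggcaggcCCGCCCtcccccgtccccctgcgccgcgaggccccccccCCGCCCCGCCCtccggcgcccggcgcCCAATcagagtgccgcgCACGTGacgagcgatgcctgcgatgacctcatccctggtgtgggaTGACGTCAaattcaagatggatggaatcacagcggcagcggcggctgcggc
ZBTB43: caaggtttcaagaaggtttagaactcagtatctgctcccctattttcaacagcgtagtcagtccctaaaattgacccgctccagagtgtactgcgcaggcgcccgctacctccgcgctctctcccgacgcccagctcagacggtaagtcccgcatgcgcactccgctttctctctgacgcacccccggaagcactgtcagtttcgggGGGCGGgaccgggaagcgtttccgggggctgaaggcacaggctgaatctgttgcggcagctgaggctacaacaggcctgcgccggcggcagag
ZBTB14: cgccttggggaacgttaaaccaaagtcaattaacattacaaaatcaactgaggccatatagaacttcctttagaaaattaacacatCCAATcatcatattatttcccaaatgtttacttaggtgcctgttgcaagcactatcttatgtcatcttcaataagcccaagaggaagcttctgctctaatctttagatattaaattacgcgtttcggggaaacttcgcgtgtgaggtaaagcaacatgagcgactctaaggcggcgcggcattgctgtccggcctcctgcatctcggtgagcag
ZBTB42: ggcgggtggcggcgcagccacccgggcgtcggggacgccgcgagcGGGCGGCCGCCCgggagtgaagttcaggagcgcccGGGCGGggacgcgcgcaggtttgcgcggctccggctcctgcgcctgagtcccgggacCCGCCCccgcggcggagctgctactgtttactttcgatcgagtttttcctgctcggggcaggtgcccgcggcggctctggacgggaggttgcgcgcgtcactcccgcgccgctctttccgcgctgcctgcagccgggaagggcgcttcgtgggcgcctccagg

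Motifs were searched on both strands, and a match is a description of the letters only. The GC box (GGGCGG) is a known site of SP1 and KLF proteins. CCAAT is bound by NF-Y. CACGTG, the E-box, is bound by MYC and related factors. The longer words were the cyclic AMP response element TGACGTCA, the E2F-type words TTTCCCGC and TTTGGCGC, the ATF4-type word TGATGCAA and the Kaiso-type word TCTCGCGA. No word searched contains another. TCTCGCGA was added after the data were seen. ZBTB21 has a TGACGTCA word that begins 1 base before the start site, beside an E-box, a CCAAT and 3 GC boxes. The windows of ZBTB2 and ZBTB43 hold GC boxes only (2 and 1), the outermost window of ZBTB14 a single CCAAT, and that of ZBTB42 GC boxes only (4). The 2 other windows of ZBTB14 hold 3 and 2 GC boxes and are richer in G and C, at 72.3% and 72.7%, than the window shown.

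Over the family, 36 of 42 members had a window, 70 windows in all, of which ZBTB38 gave 10 and ZBTB20 gave 8. The 36 include ZBTB32 and ZBTB8B, which were too low to be tested, so member shares are not limited to tested genes. A GC box was present in 61.4% of the 70, in 64.4% of 15585 windows of genes tested and in 45.0% of all 35116 windows. CCAAT was found in 40.0%, 34.9% and 34.6% of the same sets. TGACGTCA occurred in windows of ZBTB11, ZBTB21, ZBTB38 and ZBTB48, or 5.71% against 2.66% and 1.85%. All 4 genes rose, as did 71.8% of all tested members. CACGTG was present in 12.9% of member windows against 9.02% and 7.26%. The E2F-type words occurred once each, TTTCCCGC at ZBTB4 (1.43% against 2.35% and 1.63%) and TTTGGCGC at ZBTB48 (1.43% against 0.975% and 0.652%). TGATGCAA occurred in 2 windows of ZBTB38 (2.86% against 0.552% and 0.866%), and TCTCGCGA in 0 of 70 (2.05% and 1.15%). The median CpG observed-to-expected ratio was 0.74 in member windows, 0.80 in windows of genes tested and 0.58 in all windows. Counted by gene, a GC box was held by 33 of the 36 members, against 76.1% of 10589 genes tested with a window. The same counts were 20 for CCAAT (43.7%), 9 for CACGTG (12.3%) and 4 for TGACGTCA (3.69%). They were 1 each for TTTCCCGC (3.28%), TTTGGCGC (1.36%) and TGATGCAA (0.765%), and 0 for TCTCGCGA (2.78%). A gene with more windows has more chances to hold a word.

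Several members lie beside one another in the genome. Both genes rose in 3 of 5 such pairs with both tested, in a family where 28 of 39 tested members rose. Whether neighbours changed alike more often than other members was not tested. ZBTB1 and ZBTB25 on chromosome 14 overlap by 1498 bases. Head-to-head start sites of the pair, at 64503887 for ZBTB1 on the plus strand and 64503838 for ZBTB25 on the minus strand, are 49 bases apart. The ZBTB1 window chr14:64503637-64503936 covers both start sites and is printed on the plus strand to show that shared stretch, with the same marking.
ZBTB1: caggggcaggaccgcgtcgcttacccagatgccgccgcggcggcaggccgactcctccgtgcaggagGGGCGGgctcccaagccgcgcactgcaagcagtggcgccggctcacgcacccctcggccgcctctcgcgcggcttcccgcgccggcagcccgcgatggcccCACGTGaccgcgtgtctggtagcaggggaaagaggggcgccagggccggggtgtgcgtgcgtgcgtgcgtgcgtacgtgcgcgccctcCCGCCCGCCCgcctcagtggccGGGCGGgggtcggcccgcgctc
ZBTB1, a factor needed for lymphoid development, had 41.1, 36.8 and 37.8 CPM in the control and 59.7, 61.1 and 62.5 CPM in the PPM1G shRNA libraries, and ZBTB25, a repressor described in T cells, 34.2, 34.6 and 33.7 CPM (control) and 58.4, 57.6 and 55.9 CPM (PPM1G shRNA). They rose by 0.67 (SE 0.05) and 0.74 (SE 0.05) on the log2 scale. Their opposite-strand exons share 507 bases, so part of their reads may be common to both, since no strand setting is stated.

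On chromosome 9, ZBTB6 and ZBTB26 are 2242 bases apart, and ZBTB43 and ZBTB34 are 22428 bases apart. ZBTB6 had 17.5, 18.1 and 15.8 CPM in the control and 29.6, 30.5 and 31.5 CPM in the PPM1G shRNA libraries, and ZBTB26 had 20.3, 20.6 and 19.0 CPM (control) and 33.6, 36.1 and 34.6 CPM (PPM1G shRNA). Their log2 rises were 0.83 (SE 0.07) and 0.80 (SE 0.06). ZBTB34 rose by 0.80 (SE 0.07), from 16.2 ± 0.65 to 28.2 ± 1.2 CPM, beside the larger rise of ZBTB43. The pair ZBTB22 and ZBTB9 on chromosome 6, 135140 bases apart, went opposite ways. ZBTB9 rose by 0.67 (SE 0.07), from 15.8, 16.6 and 17.8 to 27.1, 25.9 and 26.8 CPM by library. The count of ZBTB9 is uncertain, since its exons overlap other annotated exons on the same strand.

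All 3 methyl-CpG readers of the family rose, beside 71.8% of all tested members and 41.5% of all genes tested. ZBTB33 (Kaiso) had 39.8, 41.4 and 36.9 CPM in the control and 71.6, 69.7 and 72.2 CPM in the PPM1G shRNA libraries, a 1.81-fold rise (log2 0.85, SE 0.05; edgeR adjusted p = 3.7e-17). ZBTB38 had 345, 335 and 312 CPM (control) and 468, 454 and 459.6 CPM (PPM1G shRNA) and rose 1.39-fold (log2 0.48, SE 0.03). ZBTB4 had 231, 219 and 217 CPM (control) and 269, 248 and 254 CPM (PPM1G shRNA), a smaller rise of 1.15-fold (log2 0.21, SE 0.03). In no case did the groups overlap. Genes for proteins with a methyl-CpG binding domain of another kind, and UHRF1, which reads hemimethylated DNA, moved in both directions. MBD1 (0.21) and MBD2 (0.11) rose on the log2 scale, while MBD3 (-0.99), MBD4 (-0.40) and UHRF1 (-4.87) fell.

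Members tied to the cell cycle and to CDKN1A rose in 5 of 6 cases (83.3%). This is beside 71.8% of all tested members and 41.5% of all genes tested. Besides ZBTB2 and ZBTB4 the members that rose were ZBTB5, a repressor of CDKN1A, ZBTB7A and ZBTB17. ZBTB5 had 28.7, 28.2 and 29.9 CPM in the control and 44.2, 39.7 and 40.5 CPM in the PPM1G shRNA libraries (log2 0.52, SE 0.06). ZBTB49, an activator of CDKN1A, was not called at 26.5, 28.3 and 28.5 CPM (control) and 30.1, 29.3 and 30.5 CPM (PPM1G shRNA), with a 95% interval of -0.01 to 0.23 for the log2 change. With plain library totals ZBTB49 passed at a log2 change of 0.21. CDKN1A rose by 0.64 (SE 0.04). Of other genes listed around CDKN1A, the stress cytokine gene GDF15 rose by 3.85 (SE 0.14), the apoptosis gene BBC3 by 2.17 (SE 0.14) and MDM4 by 1.16 (SE 0.05).

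ZBTB17 (MIZ1), the zinc finger partner through which MYC represses cell cycle inhibitors, had 39.2, 39.7 and 41.3 CPM in the control and 44.0, 45.7 and 44.7 CPM in the PPM1G shRNA libraries. The groups were separate although the rise was only 1.12-fold (log2 0.16, SE 0.05; edgeR adjusted p = 0.0033). Of 11 listed partners and targets, 7 rose (63.6%) and 2 fell (18.2%), with a median of 0.41. Among all genes tested 41.5% rose and 41.3% fell. CDKN2B, the classical gene under MIZ1, rose by 1.59 (SE 0.06), from 16.5 to 49.7 CPM, and CDKN1C by 1.64 (SE 0.09). The autophagy gene AMBRA1 rose by 1.00 (SE 0.05), whereas NPM1, a cofactor of MIZ1, fell by 0.73 (SE 0.03) and HUWE1, a ubiquitin ligase for MIZ1, by 0.68.

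In the ZBTB7 subfamily, ZBTB7A (LRF), a silencer of fetal globin and of glycolytic genes, had 120.1, 115 and 109.5 CPM in the control and 129.7, 123 and 125 CPM in the PPM1G shRNA libraries, the smallest called rise of the family at 1.10-fold (log2 0.13, SE 0.04; edgeR adjusted p = 0.002). ZBTB7B (ThPOK), which sets the CD4 T cell fate, had 23.9, 22.1 and 24.3 CPM (control) and 30.4, 30.9 and 32.0 CPM (PPM1G shRNA) (log2 0.41, SE 0.06). ZBTB7C was close to the detection limit, at 7, 18 and 18 counts in the control and 11, 33 and 23 counts in the PPM1G shRNA libraries. Its groups overlapped, and the interval of its log2 change ran from -0.27 to 1.42. Of 6 tested genes reported under ZBTB7A, 4 fell (66.7%) and 1 rose (16.7%), against 41.3% and 41.5% of all genes tested. PKM fell by 1.34 (SE 0.025), MCAM by 0.61 (SE 0.03) and CDKN2A by 0.35 (SE 0.05) and PFKP by 0.31, and the glucose transporter gene SLC2A3 rose by 1.35 (SE 0.03).

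All 6 tested members known from lymphoid or myeloid cells rose, namely ZBTB1, ZBTB7B, ZBTB17, ZBTB20, ZBTB25 and ZBTB46. Over the family 71.8% of tested members rose, and over all genes tested 41.5%. The others of the lymphoid and myeloid group were near 0. ZBTB16 (PLZF), the factor of innate-like T cells, had 0 counts in 5 libraries and 1 count in PPM1G shRNA library 2. ZBTB32 had 3 counts in all, 2 of them in control libraries. Counts of 0 allow up to 0.081 to 0.093 CPM per library (3 counts, counting error only). ZBTB8B, which belongs to no such group, had 1 count in control library 1 and 1 count in PPM1G shRNA library 1. These 3 genes were not tested.

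Members with roles at telomeres and in genome maintenance rose in 4 of 5 cases (80%), ZBTB10 and ZBTB1 among them. Over the family 71.8% of tested members rose, and over all genes tested 41.5%. ZBTB48 (TZAP), which trims telomeres, had 17.3, 19.5 and 23.5 CPM in the control and 33.5, 37.3 and 33.8 CPM in the PPM1G shRNA libraries. Control library 3 was the highest of its group, and the groups were still separate (log2 0.80, SE 0.08; edgeR adjusted p = 1.4e-08). ZBTB40, named at a locus for bone density, was not called, at 58.4, 61.4 and 56.2 CPM (control) and 56.5, 54.3 and 55.0 CPM (PPM1G shRNA) with overlapping groups (adjusted p = 0.083). Without control replicate 3 it passed as a fall of 0.12 on the log2 scale (adjusted p = 0.018).

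ZBTB24, mutated in the immunodeficiency, centromeric instability and facial anomalies (ICF) syndrome and known to activate CDCA7, had 16.8, 19.5 and 16.1 CPM in the control and 24.8, 24.8 and 24.6 CPM in the PPM1G shRNA libraries. It rose 1.42-fold (log2 0.50, SE 0.07; edgeR adjusted p = 2.6e-07). The other ICF genes fell, CDCA7 by 2.25 (SE 0.11, from 16.5 to 3.46 CPM), HELLS by 3.02 (SE 0.07, from 57.9 to 7.14 CPM) and DNMT3B by 0.21 (SE 0.06). ZBTB24 therefore changed in the opposite direction to its described target CDCA7. Exons of ZBTB24 share 305 bases with MICAL1 on the same strand.

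ZBTB18 (RP58), a repressor in developing neurons, had 21.1, 20.8 and 25.4 CPM in the control and 31.4, 27.3 and 28.6 CPM in the PPM1G shRNA libraries and rose by 0.37 (SE 0.07). In the neural and muscle group as a whole, ZBTB18 and ZBTB20 rose and ZBTB42 and ZBTB45 fell. ZBTB11, linked to intellectual disability, had 75.2, 66.9 and 69.3 CPM (control) and 103, 104 and 104 CPM (PPM1G shRNA) and rose by 0.56 (SE 0.04), with 891 of its exon bases shared with the antisense gene ZBTB11-AS1. ZBTB44 had 66.5, 69.7 and 63.0 CPM (control) and 100.3, 103 and 104 CPM (PPM1G shRNA) and rose by 0.63 (SE 0.04).

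Among the remaining, little described members, ZBTB47 went from 24.5 ± 1.4 to 39.6 ± 1.0 CPM (0.69), ZBTB41 from 42.1 ± 5.2 to 57.5 ± 2.1 CPM (0.45) and ZBTB39 from 13.9 ± 0.70 to 18.1 ± 1.5 CPM (0.38), where values after ± are SD over 3 libraries and log2 fold changes stand in parentheses. ZBTB37 went from 27.8 ± 0.57 to 34.2 ± 0.39 CPM (0.30). All 4 rose in edgeR's test. ZBTB12 (9.07 ± 0.83 to 9.74 ± 0.63 CPM, adjusted p = 0.35) and ZBTB3 (5.03 ± 0.23 to 4.45 ± 0.56 CPM, adjusted p = 0.24) were not called. Their 95% intervals for the log2 change were -0.10 to 0.30 and -0.46 to 0.11, and that of ZBTB8A was -0.20 to 0.15.

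Levels between genes were compared per length, as FPKM. The length is a single value per gene and may differ from that of the transcripts present, so the order depends on it. In the control libraries ZBTB4 was the highest member at 31.5 ± 1.1 FPKM, followed by ZBTB38 at 27.1 ± 1.4, ZBTB7A at 14.4 ± 0.67 and ZBTB2 at 12.1 ± 0.79 FPKM. The libraries of these 4 did not overlap between neighbours in the order. ZBTB4 and ZBTB38 took 13.0% and 11.2% of the summed FPKM of the family. In the PPM1G shRNA libraries ZBTB2 was highest at 45.0 ± 0.64 FPKM and took 11.5% of the sum, against 4.99% in control. ZBTB38 and ZBTB4 followed at 40.5 ± 0.51 and 39.0 ± 1.5 FPKM, and their libraries overlapped. ZBTB43 and ZBTB10, at rank 5 and 12 in control, took rank 4 and 5 at 23.5 ± 0.48 and 23.2 ± 0.20 FPKM, also with overlap.

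Below the leading members the control order was hard to resolve. Libraries of 27 of the 41 neighbouring pairs overlapped in control and 21 of 41 in the PPM1G shRNA libraries. The largest moves in rank were those of ZBTB8OS from rank 13 to 25, ZBTB22 from rank 9 to 21 and ZBTB21 from rank 25 to 15. ZBTB46, ZBTB7C, ZBTB32, ZBTB8B and ZBTB16 were the lowest 5 in control, all at or below 0.490 ± 0.013 FPKM.

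**Figure D3:**
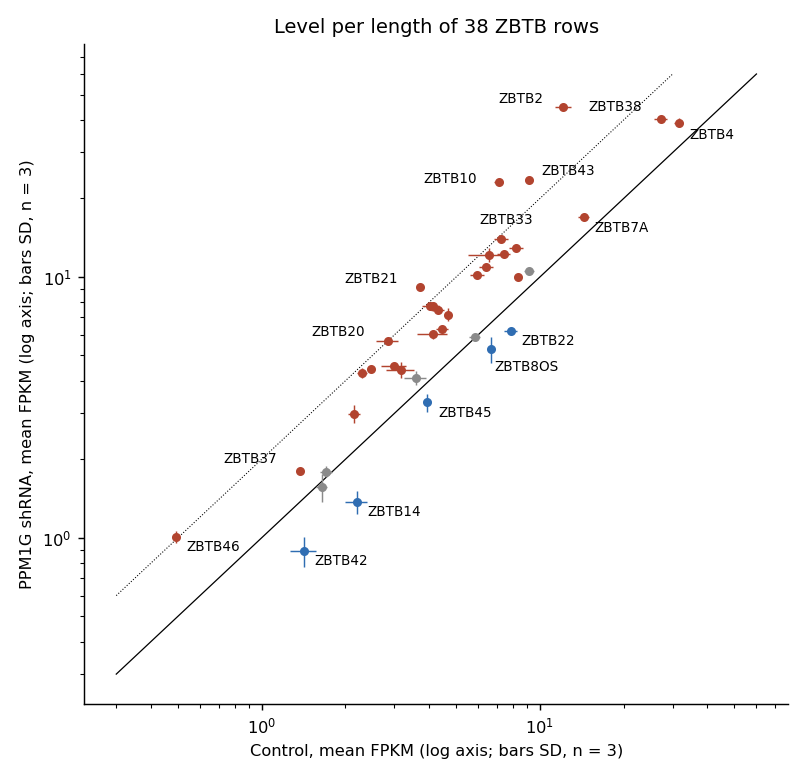
Mean FPKM in control (x axis) and PPM1G shRNA libraries (y axis) of the 38 members above 0.3 FPKM in control, both on log axes, with SD bars (n = 3). The solid line marks equal levels and the dotted line a 2-fold higher level, and red, blue and grey mark called rises, called falls and members not called. ZBTB2 lies highest on the y axis at 45.0 FPKM, and ZBTB14 and ZBTB42 lie below the solid line at low levels.

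Summed over the 42 rows, the FPKM was 246, 243 and 239 in control libraries 1 to 3 and 396, 389.7 and 392 in PPM1G shRNA libraries 1 to 3, a ratio of means of 1.62. The rows took 0.168% ± 0.0046 (SD, n = 3) of all counts in control and 0.276% ± 0.0025 (SD, n = 3) in PPM1G shRNA libraries. Leaving out the 4 members that rose at least 2-fold, the summed FPKM went from 210.5 ± 2.9 to 291 ± 1.8 (SD, n = 3), a ratio of 1.38. FPKM is scaled by plain library totals, so these ratios include the shift of 0.10 on the log2 scale given above.

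Gene length, as FPKM uses it, moved with direction inside the family. For ZBTB20 it was 28663 bp, beside 31872 exon bases in the GENCODE annotation, so it need not be the length of a single transcript. The length that the FPKM and count tables imply was 4082 bp or less for 10 tested members, of which 3 rose and 4 fell. Of the 29 longer members, 25 rose and 1 fell. Among all genes tested, 37.6% of those up to this length rose and 44.1% fell, and of the longer ones 45.4% rose and 38.6% fell. The 40.0% of short members that fell is thus near the background. The part of length in the family's changes was not tested.

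Related families were set beside the ZBTB genes with the same fit and no test of the difference. Over all genes tested, 41.5% rose, 41.3% fell and 11.8% rose by at least 2-fold. Of 446 tested zinc finger genes named ZNF, 71.3% rose and 15.7% fell, with a median of 0.61. The share of rises was thus nearly the same as the 71.8% of ZBTB rows, while 138 ZNF genes (30.9%) rose by at least 2-fold. Of 7 tested BTB zinc finger genes with other names, 5 rose and 1 fell (median 0.66). BCL6, the repressor of germinal centre B cells, rose by 1.57 (SE 0.04), from 69.1 to 206 CPM, and PATZ1 by 0.76 (SE 0.05). GZF1 rose by 0.80 (SE 0.11), and the tumour suppressor gene HIC1 fell by 0.74 (SE 0.08). Of 4 listed regulators that pair a BTB domain with no C2H2 finger, 3 rose (75%) and 1 fell (25%), beside 41.5% and 41.3% of all genes tested. BACH1 rose by 1.90 (SE 0.03), from 86.8 to 323 CPM, BACH2 by 1.45 (SE 0.08) and NACC2 by 0.18 (SE 0.06), and NACC1 fell by 1.20 (SE 0.04). In the KLF family, whose zinc fingers come without a BTB domain, 10 of 15 rose and 4 fell (median 0.75).

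**Figure D4:**
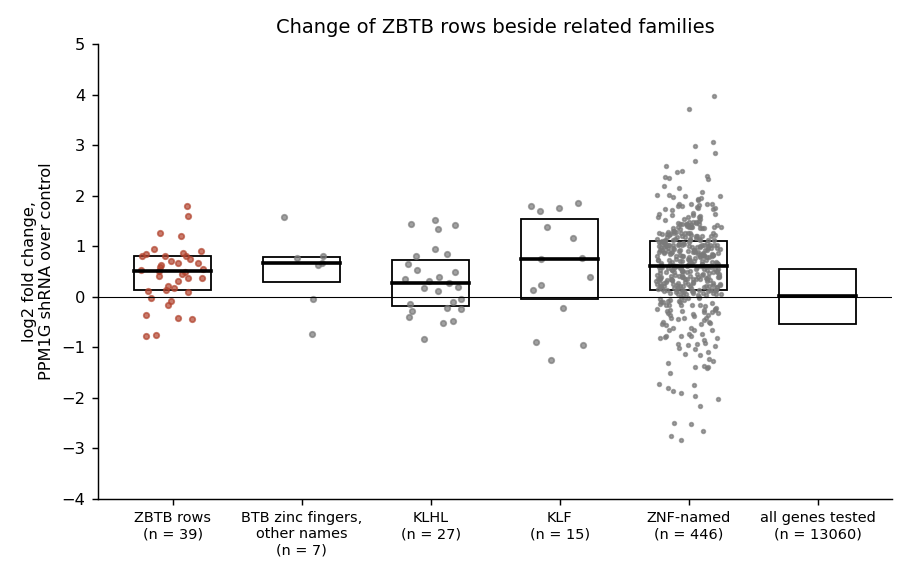
Log2 fold change (y axis, PPM1G shRNA over control) of tested ZBTB rows (red) and of related families (grey), 1 point per gene, with the median (thick line) and quartiles (box). For all 13060 genes tested only the box is drawn. The ZBTB median of 0.50 lies between those of KLHL genes (0.27) and ZNF-named genes (0.61), and no ZBTB row lies below -1.

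Corepressors that BTB domains recruit were divided, as were all genes tested, of which 41.5% rose and 41.3% fell. Of 21 tested corepressors, 7 rose (33.3%) and 10 fell (47.6%), shares near that background, with a median of -0.08. None changed by 2-fold, while 11.8% of all genes tested rose and 12.4% fell by at least 2-fold. HDAC1 fell by 0.80 (SE 0.04) and TBL1X by 0.74 (SE 0.05). SIN3B rose by 0.64 (SE 0.03) and BCOR by 0.61 (SE 0.04). A list on the CUL3 ubiquitin ligase, which uses BTB proteins as adaptors, also covered BTB quality control. Of its 13 genes, 8 rose (61.5%) and 5 fell (38.5%). The scaffold gene CUL3 fell by 1.00 (SE 0.04), from 103 to 51.5 CPM, and its RING partner RBX1 by 1.56 (SE 0.08). CUL1, the scaffold of the SKP1-CUL1-F-box ligase that removes wrongly paired BTB dimers, fell by 0.77, and the adaptor gene KBTBD2 rose by 0.80 (SE 0.05). Genes of that ligase did not move together, as SKP1 fell by 0.25 and the listed F-box gene FBXL17 rose by 0.41 (SE 0.08).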

How the data were processed

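Gene-level read counts and FPKM of 6 RNA-seq libraries were used as the authors deposited them, in 1 table each. The submitters' processing notes name GRCh38. The aligner, counting tool, annotation and strand setting were not given in the sources used here. In the deposited FPKM each count is scaled by a single gene length and the total of its library. All columns were matched to samples by name.

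Counts were filtered (filterByExpr, minimum count 10), scaled by TMM and fitted over 13060 genes with edgeR 4.0.16 in R 4.3.3 (quasi-likelihood F-test, group as the only term). P-values were Benjamini-Hochberg adjusted over all genes tested, with a threshold of 0.05. SE is the log2 fold change over the square root of F, and intervals are 95%. The script was tested on simulated data. Precision is limited by 3 libraries per group.

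Members and lists were chosen with earlier results of these data known. By rule every member was named, with values by library for the 6 largest called changes per direction, and at most 4 called genes per other list, plus MYC, CDKN1A, CDCA7, DNMT3B, HELLS, BCL6, PATZ1, BACH1 and PPM1G. MBD1, MBD2, SP1, HUWE1, PFKP, SKP1 and FBXL17 were named outside it after their values were seen. Lists were described by counts and medians, with no test. Alternatives were other scaling factors and filters, DESeq2 1.42.0, limma 3.58.1 on voom values and on log2 FPKM with a pseudocount of 1 or 0.1, a replicate block, and leaving out each library. Promoter windows came from RefSeq (GRCh38.p14), and 42 members were matched by Entrez ID. Proteins were not used here. Results on some listed genes are not reported here.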

Additional observations from a re-analysis of the deposited data

How the results depend on the processing

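All 33 called members kept their direction and their call in each of the 16 alternatives. The number of members that rose was 28 to 30, the number that fell 5 to 6 and the number at least 2-fold changed 4 to 6 (6 with plain library totals). Leaving out each library in turn gave 28 rises, 5 to 6 falls and 4 members past 2-fold. With the replicate block 28 members rose and 5 fell, and no member's call changed. Replicate numbers share no stated source, and deviations of same-numbered libraries correlated across genes at 0.01, -0.02 and 0.00. Changes of sign or call were limited to 4 members not called with the reported settings. ZBTB40 turned to 0.01 with plain library totals, 0.02 on log2(FPKM + 0.1) and 0.01 on log2(FPKM + 1). ZBTB8A turned to 0.08, 0.07 and 0.05 under the same settings, to 0.02 with upper-quartile factors and to 0.01 without control replicate 1, with a range of -0.06 to 0.01 over the libraries left out. ZBTB49 passed the test at 0.15 with upper-quartile factors, ZBTB12 at 0.20 on log2(FPKM + 0.1) and ZBTB40 at -0.12 without control replicate 3. Plain totals shift all genes by a median of 0.10, and the cause of the other changes was not tested. The pseudocount of 1 shrinks low members by construction, to 0.43 for ZBTB46, -0.35 for ZBTB42 and -0.43 for ZBTB14. Over all genes, plain totals gave 6107 rises and 4813 falls. Depth limits ZBTB7C, ZBTB16, ZBTB32 and ZBTB8B.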

Other observations

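BTB-kelch genes (KLHL), which pair the BTB domain with a kelch propeller and serve as CUL3 adaptors, were mostly higher too. Of 27 tested, 17 rose (63%) and 4 fell (14.8%), with a median log2 fold change of 0.27. Among all genes tested 41.5% rose and 41.3% fell. KLHL24 rose by 1.51, KLHL28 by 1.44, KLHL21 by 1.43 and KLHL26 by 1.34. In the KLF family KLF10 rose by 1.85, KLF11 by 1.80, KLF4 by 1.75 and KLF15 by 1.69. The rise of KLF15 is imprecise, with an interval of 0.78 to 2.61. It rests on 3, 16 and 5 counts in the control and 26, 32 and 23 counts in the PPM1G shRNA libraries. Of 6 tested genes for shelterin and telomere length, 3 rose (50%) and 1 fell (16.7%), with a median of 0.12. TERF2IP rose by 0.86, TERF2 by 0.70 and TINF2 by 0.15, and ACD fell by 0.20.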
